A study of Homo sapiens with 16 samples.

Results

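The major histocompatibility region lies on the short arm of human chromosome 6. Its genes were taken by position as all rows of the gene table on chr6 that start at or after base 29600000 and end at or before base 33400000 of the hg19 build. This gave 147 of the 19333 genes listed. They fall into a class I segment (51 genes, starts under 31500000), a class III segment (59 genes, starts from 31500000 to 32350000) and a class II segment (37 genes, starts beyond 32350000), and 71 lie on the plus strand and 76 on the minus strand. The RNA came from HEK293, a human embryonic kidney cell line, and total RNA was depleted of ribosomal RNA before sequencing. One group was transfected with a negative control RNA (scramble, 2 libraries). The other was transfected with 10 nM of siRNA against Top1 (Top1 KD, 2 libraries), the topoisomerase that relaxes supercoiled DNA ahead of and behind RNA polymerase. Cells were transfected again and collected 5 days after the first transfection, and the submitters state that all samples came from different passages. The other samples of the series, which map R-loops and RNA polymerase II, were not used here.

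The region is known for the cell surface proteins by which the immune system tells self from foreign. Class I proteins display peptides made inside a cell to cytotoxic T cells and are carried by most nucleated cells. Class II proteins display peptides taken up from outside to helper T cells and are mostly restricted to professional antigen-presenting cells such as B cells and dendritic cells. The segment between them, class III, holds genes of complement, of the tumour necrosis factor family and of heat shock proteins, and each segment also holds many genes with no part in antigen presentation. The table lists genes by Ensembl transcript identifiers, and 0 of the 147 matched a key of the name tables used here. No member can therefore be tied to a gene name or a role, the labelled cell type could not be checked against marker genes, and the level of TOP1 itself was not established here. The paper reports that Western blot and RNA-seq showed the knockdown. Members are given by hg19 position, with an identifier for 4 of them.

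Values are read counts divided by a library size factor (normalized counts), not scaled for gene length, from libraries of between 14681774 and 18366226 recovered reads. The library-wise limit that a count of 0 allows, 3 reads, lay between 2.64 and 3.25 normalized counts and covers counting error only.

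To see which genes of the region gave reads in HEK293 cells, the members were first sorted by their counts. Of the 147, 36 were listed at 0 in all 4 libraries (24.5%, against 19.7% of all genes listed). Another 22 had reads but did not reach 10 normalized counts in at least 2 libraries, and the remaining 89 were tested for a difference between the groups. Members at 0 made up 14 of 51 in class I, 18 of 59 in class III and 4 of 37 in class II. Class II thus had the smallest share of members at 0, although 10 of its 37 members had only scattered reads.

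**Figure D1:**
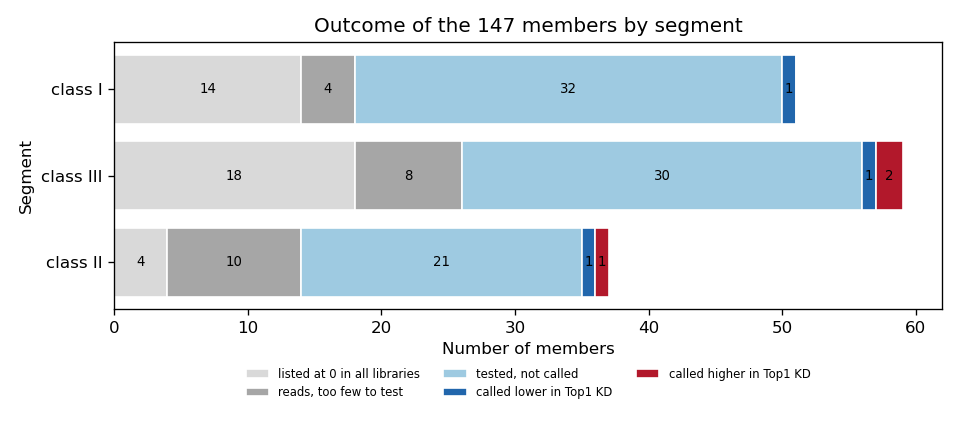
Number of members (horizontal axis) in each segment (rows) by outcome: listed at 0 in all 4 libraries, with too few reads to test, tested and not called, called lower or called higher in Top1 KD cells. Class I has 14 members at 0, class III 18 and class II 4, and the called members number 1, 3 and 2.

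The 36 members at 0 formed 15 stretches of neighbours, 5 of them a single member. The longest unbroken stretch held 8 neighbouring class I members, chr6:30899130-31107869, none of which had a read in any library. In class III, 4 neighbours at chr6:31949801-32009447 were all at 0, as were 3 neighbours at chr6:31895254-31919825 that overlap each other. Being at 0 went together with overlap between rows of the table. Of the 17 members that overlap another row on the same strand, 9 were at 0 (52.9%), against 27 of the 130 others (20.8%). Over all genes listed the same shares were 49.0% and 18.4%. The part of overlap in these zeros was not tested, nor was that of reads dropped because they did not map uniquely.

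Class II was divided at its widest gap between genes, 75.5 kb, into 2 stretches. The division was made after the values were seen, and the next gaps, 75.0 and 74.7 kb, were nearly as wide. In the left stretch, chr6:32361740-33054978, 15 of 20 members had a mean under 10 normalized counts and 7 could be tested. In the right stretch, chr6:33130458-33385899, 16 of 17 members were tested and 14 averaged 100 normalized counts or more. The right stretch gave 84.3% of all class II counts. In the left stretch 2 members reached that level. The member at chr6:32936437-32949282 had 3276 and 3682 normalized counts in scramble and 3669 and 3304 in Top1 KD cells. The member at chr6:32812986-32821755 had 301 and 305 in scramble and 287 and 205 in Top1 KD cells. The former overlapped fully between the groups, with a log2 fold change of 0.0037 (standard error 0.11), and the latter was not called either (log2 fold change -0.32, standard error 0.25).

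The region as a whole took 0.613% and 0.543% of all normalized counts in scramble cells and 0.528% and 0.487% after Top1 depletion. Both Top1 KD libraries were below both scramble libraries, and the exact permutation test (two-sided) gave p = 0.333, the smallest that 2 libraries against 2 can give. The difference between the group means was -0.071 percentage points, and -0.034 without the class III member with the most counts, whose replicates are given below. For class II alone it was -0.032, and 0.0032 without the class II member with the most counts. In these bulk libraries fewer cells of a kind and less RNA per cell cannot be told apart. Most of these counts came from few genes. A single member in each segment had by far the most, and the 3 together made up 51.3% of the region's counts. Per kilobase of gene span, introns included, the class III one had 6250 normalized counts on average, the class II one 3275 and the class I one 2739.

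The class I member with the most counts, chr6:30687978-30693203, had 13383 and 14318 normalized counts in scramble and 14572 and 14980 in Top1 KD libraries. Its groups did not overlap, but the difference of 0.094 ± 0.086 on the log2 scale (SE, limma adjusted p = 0.508) was close to its standard error and did not pass the test. Class I as a whole took 0.198% ± 0.0060 of all counts in scramble cells and 0.199% ± 0.0029 in Top1 KD cells (SD, n = 2 each), a difference smaller than the spread between replicates. Without its member with the most counts, the class I shares were 0.111% and 0.113% in scramble and 0.105% and 0.108% in Top1 KD libraries. These did not overlap (exact permutation p = 0.333), so the level class I total rested in part on that member.

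The class II member with the most counts, chr6:33239787-33244287, had 17330 and 17985 normalized counts in scramble and 11986 and 11655 in Top1 KD libraries. The groups stood well apart and the replicates close together. Its log2 fold change was -0.58 (standard error 0.08, limma adjusted p = 0.000473), which is a 1.49-fold difference and so just short of the 1.5-fold needed for a call. The class II share of all counts was 0.172% ± 0.0044 in scramble and 0.140% ± 0.0031 in Top1 KD cells (SD, n = 2 each). Without this member the shares were 0.0627% and 0.0659%, so the lower class II total rested on it.

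The class III member with the most counts, chr6:31795512-31798031, had 24865 and 12864 normalized counts in scramble and 16598 and 8650 in Top1 KD libraries. Here the groups overlapped, and the replicates of each group differed by 1.93-fold and 1.92-fold. Its change of -0.58 ± 0.25 on the log2 scale (SE, limma adjusted p = 0.139) was as large as that of the class II member and was not called. The standard error by limma is pooled in part over all tested genes, so it is not the spread of this member's own replicates. The neighbouring class III member chr6:31783291-31785717, on the same strand, had 6343 and 3873 in scramble and 2981 and 4109 in Top1 KD libraries, and was not called either (limma adjusted p = 0.0715). It overlaps a row on the opposite strand, and the strand setting of the counting is not given in the sources used here. Only uniquely mapped reads were kept, so reads that fit near-identical copies equally well were not counted. Such copies could not be marked without names, and the values of such members may be too low.

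**Figure D2:**
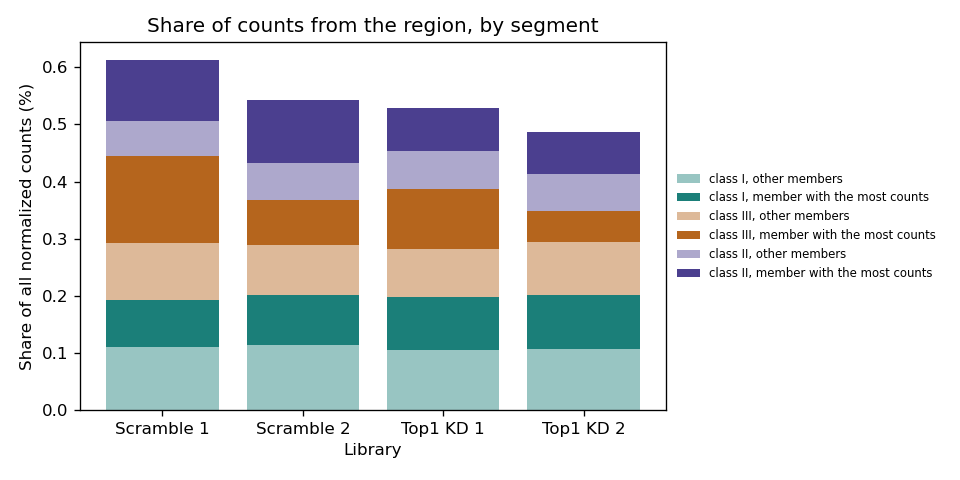
Share of all normalized counts (vertical axis, percent) in each of the 4 libraries (horizontal axis), stacked by segment, with the member of each segment that had the most counts in the darker shade. Class I is nearly level at 0.193% to 0.202%, the darker class II block is smaller in both Top1 KD libraries, and the darker class III block varies between replicates.

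Replicates differed more in this region than over all genes. Among the 65 members that averaged 100 normalized counts or more, the scramble replicates stood at least 1.5-fold apart in 14 (21.5%, against 4.14% of all genes at that level) and the Top1 KD replicates in 10 (15.4%, against 7.45%). The spread was widest in class III, with 8 and 6 of 27 members, and narrowest in class I, with 3 and 1 of 22. Region members were shorter than other genes (median span 6.19 kb against 21.7 kb), and among all genes under 10 kb the shares were 6.61% and 11.5%. Of the 30 members that averaged 500 or more, 3 stood that far apart in scramble (against 0.544% of all genes) and 1 in Top1 KD cells (3.33%, against 2.01% of all genes and 3.95% of those under 10 kb). All 3 of the former were class III members, namely the pair at chr6:31783291-31785717 and chr6:31795512-31798031 described above and chr6:31745295-31763730, which is one of the called members below. These shares were worked out after the values were seen and are a description.

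**Figure D3:**
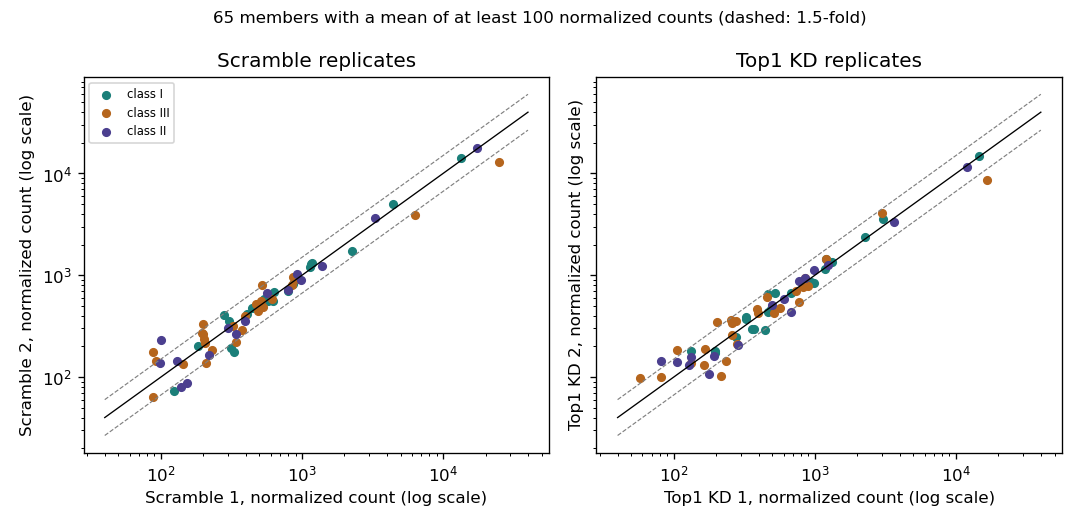
Normalized counts of replicate 1 (horizontal axis, log scale) against replicate 2 (vertical axis, log scale) for the 65 members with a mean of at least 100, scramble on the left and Top1 KD on the right, with points coloured by segment, a solid line of equality and dashed lines at 1.5-fold. Points outside the dashed lines number 14 on the left and 10 on the right, most of them class III.

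Scramble and Top1 KD libraries were set against each other in a limma fit over all 13086 tested genes, on the log2(normalized count + 1) scale, and a gene was called where its adjusted p was under 0.05 and it changed 1.5-fold or more. Of the 89 tested members, 6 were called (6.74%), where 8.15% of all tested genes were. Of these, 3 were higher after Top1 depletion (3.37%, against 3.88% of all tested genes) and 3 were lower (3.37%, against 4.26%). The called members numbered 1 of 33 tested in class I, 3 of 33 in class III and 2 of 23 in class II. Over the whole region the share was near that of all genes, while among genes under 10 kb 1 of 56 members was called (1.79%), against 8.56% of all such genes. The cut at 10 kb was not planned in the design, and all other called members span more than 10 kb. On recovered reads edgeR and DESeq2 called the same 6 members, against 8.32% and 8.39% of all tested genes. In 46 of the 89 tested members the libraries of the groups did not overlap (51.7%, against 57.8% of all tested genes). In 23 the Top1 KD libraries were higher (28.8% of all tested genes) and in 23 lower (29.0% of all).

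Both class III rises were from minus-strand genes. Among called members the largest rise was that of ENST00000375203, chr6:32083041-32096017, which had 88.6 and 63.3 normalized counts in scramble and 235 and 143 in Top1 KD libraries. Both Top1 KD libraries lay well above the scramble ones, although they differed from each other by 1.63-fold. By limma its log2 fold change was 1.28 ± 0.37 (SE, adjusted p = 0.0307), or 2.43-fold. ENST00000375663, chr6:31745295-31763730, had 525 and 794 normalized counts in scramble and 1193 and 1454 in Top1 KD libraries, which limma put at a log2 fold change of 1.03 ± 0.18 (SE, adjusted p = 0.00172). The lowest Top1 KD library was above the highest scramble library, and of the 6 called members this one had the smallest adjusted p. The class II rise, at chr6:33267471-33282164, went from 341 and 263 in scramble to 674 and 436 in Top1 KD libraries, or 0.85 ± 0.23 on the log2 scale (SE, limma adjusted p = 0.0223).

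Among called members the deepest fall was that of the class II gene ENST00000452392, chr6:32781544-32806599. It had 111 and 111 normalized counts in scramble and 33.6 and 44.6 in Top1 KD libraries. The scramble libraries were almost equal and more than double either Top1 KD library, and the log2 fold change was -1.50 (standard error 0.46, limma adjusted p = 0.0387), or 2.82-fold lower. It overlaps on the same strand a row at chr6:32793192-32806557 that was listed at 0 and a row at chr6:32780540-32784825 with a mean of 11.2 normalized counts, so the reads of these rows cannot be fully told apart. In class III, ENST00000534153, chr6:31707797-31732622, had 322 and 318 in scramble and 216 and 102 in Top1 KD libraries. Here the Top1 KD replicates differed by 2.12-fold, and the log2 fold change was -1.10 (standard error 0.32, limma adjusted p = 0.0298). It overlaps a row at chr6:31730773-31732628 that was listed at 0. The class I fall, at chr6:30457244-30461982, went from 538 and 583 in scramble to 369 and 298 in Top1 KD libraries, or -0.76 ± 0.20 on the log2 scale (SE, limma adjusted p = 0.0172).

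**Figure D4:**
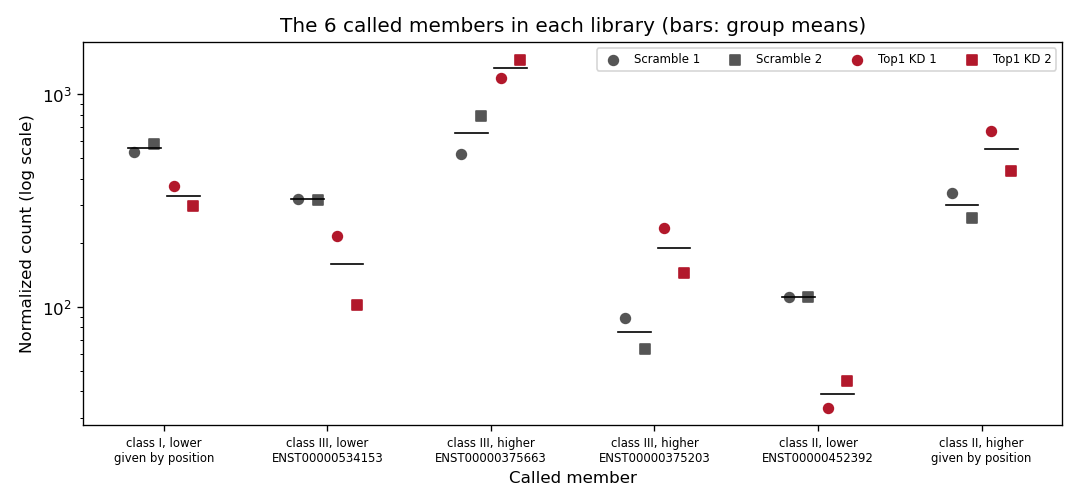
Normalized count (vertical axis, log scale) of each of the 6 called members (horizontal axis) in scramble replicates 1 and 2 (grey) and Top1 KD replicates 1 and 2 (red), circles for replicate 1 and squares for replicate 2, with bars at the group means. The groups do not overlap in any of the 6, and the widest gap between Top1 KD replicates, 216 against 102, is that of ENST00000534153.

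These calls rested on all 4 libraries. With 1 library left out, the single remaining library of that group is assumed to vary like the others, and the calls over the whole table ranged from 316 to 1329 genes. Without scramble replicate 1, 0 of the 6 members were still called, without scramble replicate 2, 1 was, without Top1 KD replicate 1, 3 were, and without Top1 KD replicate 2, 4 were. The direction held in each case, and all 6 still changed at least 1.5-fold without either scramble replicate. Without Top1 KD replicate 1 the class II rise was 0.54 on the log2 scale, and without Top1 KD replicate 2 the fall of ENST00000534153 was -0.56, both short of 1.5-fold. ENST00000375663 kept its call in 3 of these 4 fits and lost it without scramble replicate 1 (log2 fold change 0.73, limma adjusted p = 0.0668).

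A further 5 members passed an adjusted p under 0.05 with a smaller change, making 11 in all (12.4%, against 14.8% of all tested genes). One is the class II member with the most counts, described above. The class I member chr6:31497996-31510225, whose end reaches across the class III limit, had 4439 and 5057 normalized counts in scramble and 3039 and 3552 in Top1 KD libraries, 1.44-fold lower (limma adjusted p = 0.00481). The class I member chr6:30585486-30594172 had 638 and 687 in scramble and 464 and 432 in Top1 KD libraries, 1.48-fold lower (limma adjusted p = 0.0379). In both the replicates lay closer together than the groups. The class II member chr6:33168603-33172216 had 1382 and 1220 in scramble and 858 and 946 in Top1 KD libraries, 1.44-fold lower (limma adjusted p = 0.0173). The class III member chr6:31847536-31865461 had 511 and 559 in scramble and 819 and 769 in Top1 KD libraries, 1.48-fold higher (limma adjusted p = 0.0257). Of the 11, 4 were higher and 7 lower in Top1 KD cells.

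The middle of the distribution lay near 0. The median log2 fold change was 0.05 over the 89 tested members, 0.06 in class I, 0.04 in class III and 0.01 in class II, where it was 0.0025 over all tested genes. The region, class II and class III medians fell below 0 without scramble replicate 1 (-0.045, -0.062 and -0.069), the region and class I medians without Top1 KD replicate 1 (-0.0084 and -0.068), and the class III median also without Top1 KD replicate 2 (-0.036). The size of change, regardless of direction, had a median of 0.36 in the region and 0.29 over all tested genes (0.34 over those under 10 kb), and was largest in class III (0.50) and smallest in class I (0.22). Among members that averaged 100 normalized counts or more, the largest class I rise was that of chr6:30875961-30881883, with 124 and 72.1 in scramble and 132 and 182 in Top1 KD libraries, which was not called (log2 fold change 0.71, standard error 0.37, limma adjusted p = 0.222). The lowest class II value at that level was that of chr6:33384320-33385899, with 219 and 164 in scramble and 106 and 142 in Top1 KD libraries, also not called (log2 fold change -0.62, standard error 0.32, limma adjusted p = 0.21). The largest fitted values in the region, 3.22 and -2.48, both belonged to class I members with at most 30.3 normalized counts in any library, and neither was called.

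**Figure D5:**
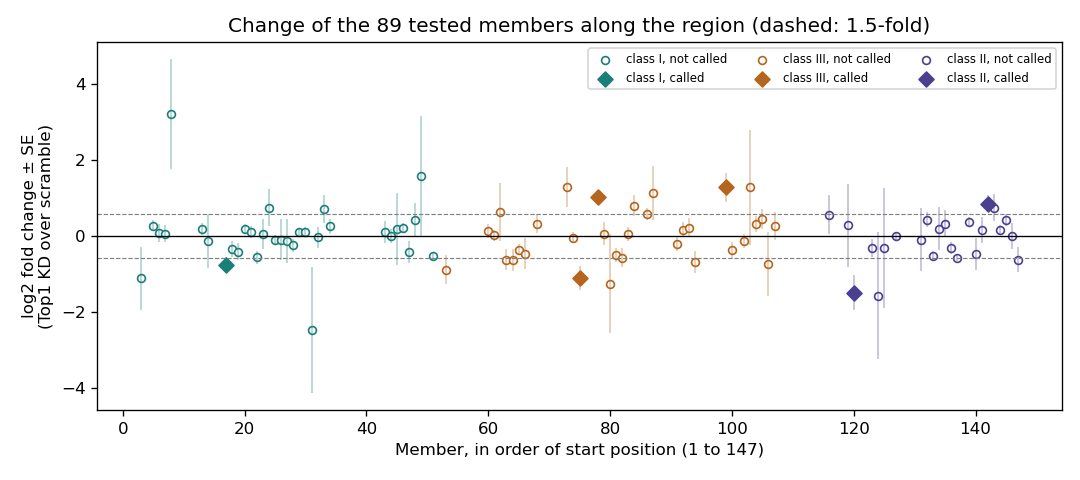
Log2 fold change of Top1 KD over scramble with its standard error (vertical axis) for the 89 tested members, in order of start position (horizontal axis), coloured by segment, with called members as filled diamonds and dashed lines at 1.5-fold. Called members of either direction lie among members near 0, and the points far from 0 with long error bars are members with few counts.

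Along the chromosome, higher and lower members were interspersed. The 89 tested members formed 41 runs of 1 sign, of which 15 held a single member and the longest held 6. That longest run, chr6:33259431-33384230, was higher in Top1 KD cells with a median log2 fold change of 0.29, and 1 of its 6 members was called. A run of 4 lower members, chr6:31626075-31641323, had a median of -0.54, and 0 of them passed an adjusted p under 0.05, although 3 had an unadjusted p under 0.05 by limma. Such an unadjusted p was common, in 24 of the 89 tested members and 3830 of all 13086 tested genes. Among 13 tested pairs of opposite strand with start sites within 1000 bases of each other, 7 changed with the same sign and 6 with opposite signs. In the pair 138 bases apart at chr6:33161365-33168465 and chr6:33168603-33172216, the minus-strand gene had 392 and 354 normalized counts in scramble and 495 and 512 in Top1 KD libraries, while its plus-strand partner was the gene given above with 1382 and 1220 against 858 and 946. The log2 fold change was 0.43 (limma adjusted p = 0.138) for the former and -0.53 for the latter.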

How the data were processed

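Per the labels and the paper's methods, single-end reads were cleaned with fastq-mcf, mapped to hg19 with TopHat2 2.0.5 and counted with HTSeq. Only uniquely mapped reads were kept. Counting settings, strand and annotation release are not given in the sources used here. The authors deposited a signal for each library, namely the count divided by a DESeq2 size factor. The authors' own DESeq2 comparison (fold change, error, statistic, p-values and call) was not used. Reads were recovered by dividing by the value of 1 read. In each library 100% of values were whole within 0.02 reads or 0.02% of the value, whichever was larger. Members and lists were chosen with earlier results of these data known. The main test was limma 3.58.1 in R 4.3.3 with a mean-variance trend, a pseudocount of 1 and Benjamini-Hochberg adjustment over genes that reached 10 normalized counts in 2 or more libraries. The pseudocount shrinks fold changes of low genes, but the fit averages logs, so a library at 0 can also enlarge or reverse them. The member at chr6:32132360-32136058 had 0 and 41.4 normalized counts in scramble and 11.9 and 18.4 in Top1 KD libraries. Its fitted log2 fold change was 1.28, although its mean was 20.7 in scramble and 15.2 in Top1 KD cells. The libraries came from different passages, so p-values rest on the spread between these libraries. In limma each gene's variance is drawn toward a trend over all tested genes. The standard error and p-value of a gene are thus not its own replicate spread alone. edgeR 4.0.16 and DESeq2 1.42.0 on recovered reads were alternatives, and edgeR called 1089 of the 13086 tested genes. The fit was tested on simulated data. Identifiers were given for the 2 largest rises and falls among called members. By position, the rule took the other called members and, in each segment, the member with the most counts and the largest rise and fall at a mean of at least 100. Other positions were chosen after values were seen. Gene lists by symbol, written in the design, could not be used because no identifier matched a name.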

Additional observations from a re-analysis of the deposited data

How the results depend on the processing

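The same 6 members were called by edgeR and DESeq2 on recovered reads, with pseudocounts of 0.5 and 5, and with a replicate block, which also gave 6 members and 1085 genes in all. The labels give both groups the numbers 1 and 2, and the submitters state different passages. Over the tested genes the deviations of same-numbered libraries did not correlate (-0.01). That check cannot settle whether the numbers pair the libraries, since counting noise can hide a shared deviation. With no filter on low values 4 of 111 members were called, against 6.47% of all genes (ENST00000375203 and ENST00000452392 had limma adjusted p = 0.0586 and 0.0719). Above a mean of 100 normalized counts 5 of 65 were called, against 10.1% of all genes. With library-size scaling 7 of 89 were called, against 8.42% of all genes, the added one being chr6:31847536-31865461. Under that scaling the median over all genes went from 0.0025 to 0.03. A fold threshold lower than 1.5 and no fold threshold both gave 11 members, and 1897 and 1937 genes in all. A threshold of 2 gave 4 of the 89 tested members and 340 of all 13086 tested genes. Leaving out each library gave from 2 to 7 members and from 316 to 1329 genes. The median log2 fold change of class II was 0.13 with edgeR, 0.14 with DESeq2, 0.16 without a filter and 0.085 at a mean of at least 100, and the cause was not tested. Over the fits without 1 library each, the median ranged from -0.045 to 0.060 for the region, from -0.068 to 0.074 for class I, from -0.069 to 0.078 for class III and from -0.062 to 0.18 for class II. Without a filter on low values the class III median was -0.042. The Top1 KD minus scramble difference in share of counts ranged over these fits from -0.11 to -0.04 percentage points for the region. Without the member with the most counts it was -0.034 for the region, -0.0057 for class I, -0.0037 for class III and 0.0032 for class II, against -0.071, 0.0016, -0.041 and -0.032 with it, by construction of that alternative. Of the 89 tested members, 6 overlap another row on the same strand. Without these 6, an alternative chosen after seeing the data, 4 members were called. The calls lost were those of ENST00000534153 and ENST00000452392, by construction. The share over all genes under this exclusion was not worked out. With 2 libraries per group, depth limits calls in low members, and the 22 members with scattered reads were not tested in the main comparison.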
